A study of Drosophila melanogaster with 2 samples.

Results

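Proneural basic helix-loop-helix (bHLH) genes were followed through RNA of sorted type II neuroblast lineages from larval Drosophila melanogaster brains. The 7 genes, chosen by symbol, were the achaete-scute complex genes ase, l(1)sc, sc and ac, the neurogenin-class gene tap, the atonal-class gene ato and the gene of their common partner, da. All 7 were found among the 14210 genes of both deposited tables. The osa RNAi flies expressed UAS-CD8::GFP together with an RNAi construct against osa (VDRC line 7810), and the wild type flies (w1118 strain) expressed UAS-CD8::GFP alone. Both sets of transgenes were driven by worniu-Gal4 with ase-Gal80, and larvae were taken late in the third instar. There was 1 library for each genotype. Per the labels, the osa RNAi sort held type II neuroblasts, neuroblast-like revertant cells and intermediate neural progenitors (INPs), whereas the wild type sort held type II neuroblasts, INPs and ganglion mother cells without neurons. The cell makeup of the sorts and the knockdown can therefore not be told apart, and neither can fewer cells of a type and less RNA per cell.

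Proneural proteins are transcription factors that bind E-box DNA as dimers with the broadly expressed class I bHLH protein Daughterless and start neural programmes in progenitor cells. Their activity is held back by Notch through E(spl) repressors, by the repressor Hairy, and by the HLH protein Extramacrochaetae. Extramacrochaetae lacks a DNA-binding region and occupies Daughterless. In the larval brain, Asense is absent from type II neuroblasts and appears in maturing INPs, and for that reason ase-Gal80 restricts a neuroblast Gal4 driver to type II lineages.

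In osa RNAi the most abundant of these transcripts was l(1)sc, and in wild type it was tap. Of the 7 genes, 5 had a mean of at least 1 FPKM (fragments per kilobase of transcript, scaled to library size) with an estimate marked OK, and count as measured. A gene was called when its log2(FPKM + 1) differed by at least 1 between the libraries and its deposited intervals lay apart. At high levels this corresponded to about 2-fold. At low levels the added 1 made the rule ask for a larger FPKM ratio. A gene that did not pass can therefore still differ by more than 2-fold in FPKM. By this rule l(1)sc was higher in osa RNAi, tap and ato were lower, and ase and da did not pass. Over all 7144 measured genes the same rule called 7.78% higher and 6.79% lower. The median difference was −0.49 over the 5 measured members and 0.04 over all measured genes. With 1 library per genotype no test between genotypes was possible, and all intervals cover counting error only.

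**Figure D1:**
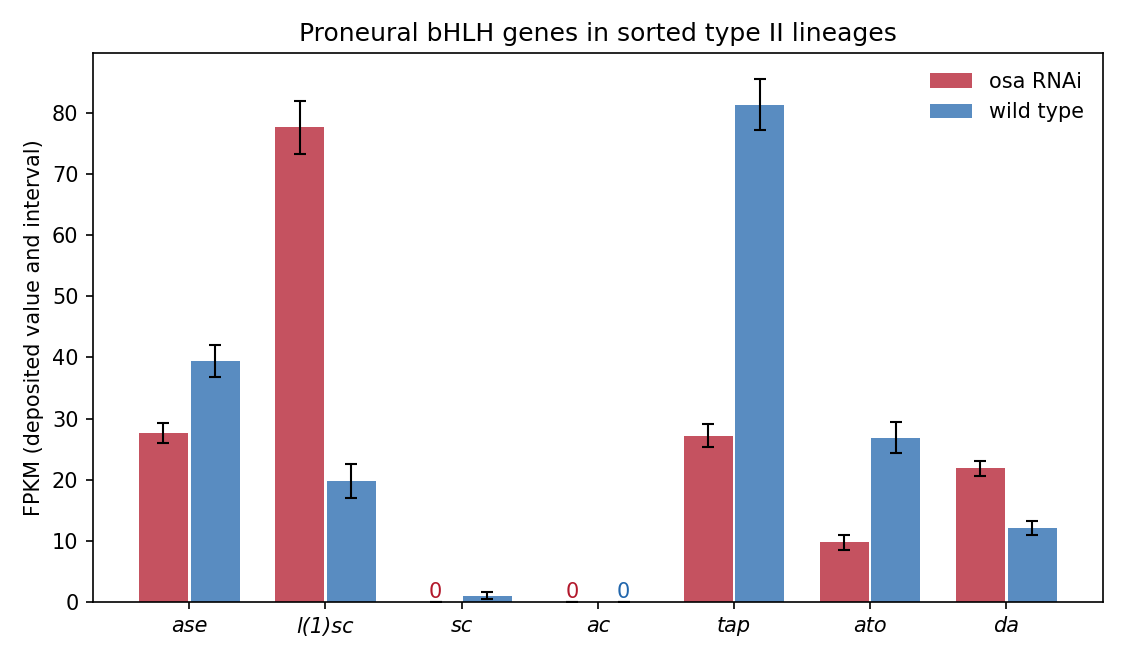
FPKM (linear axis) of the 7 proneural bHLH genes in osa RNAi (red) and wild type (blue), 1 library each; bars are deposited values, error bars the deposited intervals, and a 0 marks a gene listed at 0. The bar of l(1)sc reaches 77.6 FPKM in osa RNAi against 19.8 FPKM in wild type, and that of tap 27.2 FPKM in osa RNAi against 81.4 FPKM in wild type.

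Within the achaete-scute complex the genes went in different directions. Lethal of scute (l(1)sc, FBgn0002561, X from 303756 to 304850) is a proneural gene of embryonic neuroblasts that also marks the zone where neuroepithelium turns into neuroblasts in the optic lobe. It had 77.6 FPKM in osa RNAi (deposited interval 73.3 to 81.9), against 19.8 FPKM in wild type (17.0 to 22.6). The intervals lay far apart, and the FPKM ratio was 3.92-fold (95% interval 3.38 to 4.54). The widths of the intervals implied 1308 reads of l(1)sc in osa RNAi and 204 in wild type. On the log2(FPKM + 1) scale the difference was 1.92, and 4.37% of measured genes differed at least as much in either direction.

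Asense (ase, FBgn0000137, X from 354533 to 357209) acts in neuroblasts and INPs. It had 27.7 FPKM in osa RNAi (26.0 to 29.3), against 39.4 FPKM in wild type (36.8 to 42.0). It was lower in osa RNAi with intervals apart, by a factor of 1.42 (95% interval 1.31 to 1.55), and its log2(FPKM + 1) difference of −0.49 did not pass the rule. Differences of this size or more were found in 37.9% of measured genes. The FPKM of l(1)sc was 2.81 times that of ase in osa RNAi (95% interval 2.59 to 3.04) and 0.503 times that of ase in wild type (0.432 to 0.585), so the order of both genes was inverted between the libraries.

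Scute and achaete, which promote sensory bristles in the fly's epidermis, were at the lower end of the data. Scute (sc, FBgn0004170, X from 290093 to 291530) was listed at 0 in osa RNAi and had 1.05 FPKM in wild type (0.523 to 1.57), from 16 implied reads. An equal level would have given 24.8 reads in osa RNAi, and 40.6% of the 569 genes with 20 to 40 expected reads were listed at 0 there. Some of those genes may themselves differ between the libraries, so the 0 of sc in osa RNAi shows neither a difference nor an equal level. Achaete (ac, FBgn0000022, X from 264064 to 264980) was listed at 0 in both libraries.

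Both genes outside the complex that belong to the neurogenin and atonal classes were lower in osa RNAi. The gene tap (target of Poxn, FBgn0015550, 3L from 17352750 to 17354921) encodes a neurogenin-class factor that acts in neuronal development. It had 27.2 FPKM in osa RNAi (25.3 to 29.0), against 81.4 FPKM in wild type (77.2 to 85.6), a factor of 2.996 lower (95% interval 2.75 to 3.26). Its log2(FPKM + 1) difference was −1.55. In wild type it ranked 1125th by FPKM among all genes of the files, and in osa RNAi it ranked 2629th.

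Atonal (ato, FBgn0010433, 3R from 4103514 to 4104996) is the proneural gene of photoreceptors and chordotonal organs. It had 9.76 FPKM in osa RNAi (8.49 to 11.0), against 26.9 FPKM in wild type (24.3 to 29.5), a factor of 2.75 lower (95% interval 2.35 to 3.23). Its log2(FPKM + 1) difference was −1.37, and the implied reads were 237 in osa RNAi and 434 in wild type. Its intervals in the libraries lay apart, as did those of tap.

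Daughterless (da, FBgn0000413, 2L from 10388078 to 10392786), the dimerisation partner of the other 6 proteins, was higher in osa RNAi without passing the rule. It had 21.8 FPKM in osa RNAi (20.5 to 23.1), against 12.1 FPKM in wild type (10.9 to 13.2). The FPKM ratio was 1.81-fold (95% interval 1.62 to 2.01), the log2(FPKM + 1) difference 0.80, and 20.9% of measured genes differed at least as much.

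Added over the 6 genes other than da, the level was 142 FPKM in osa RNAi and 169 FPKM in wild type, while its makeup differed more than its sum. The share of l(1)sc was 54.6% in osa RNAi and 11.8% in wild type. The share of tap was 19.1% in osa RNAi and 48.3% in wild type, and that of ato was 6.86% in osa RNAi and 15.95% in wild type. The share of ase was 19.4% in osa RNAi and 23.4% in wild type. The 6 genes together stood at 6.51 times the FPKM of da in osa RNAi and 13.9 times in wild type. In osa RNAi the order of levels was l(1)sc, ase, tap, da and ato, where ase and tap had overlapping intervals and the other neighbours did not. In wild type the order was tap, ase, ato, l(1)sc, da and sc, with no overlap between neighbours.

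**Figure D2:**
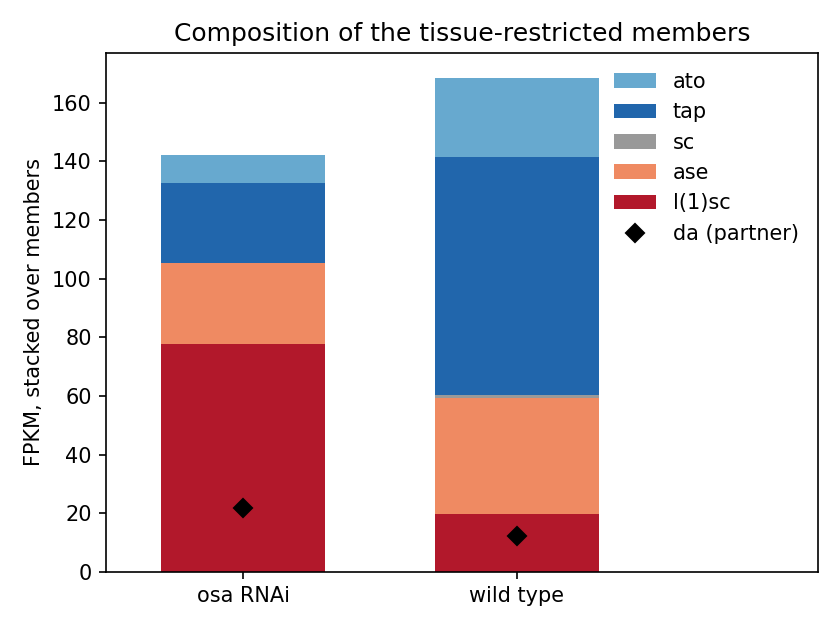
FPKM of the proneural bHLH genes other than da, stacked per library (osa RNAi left, wild type right, 1 library each), with the FPKM of da as a diamond; ac was listed at 0 and has no segment. The lowest segment, l(1)sc, makes up 54.6% of the stack in osa RNAi and 11.8% in wild type.

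The 4 complex members lie within 93.1 kb of the X chromosome, and all of them lie inside the much longer locus of CG32816 (X from 210609 to 364670). CG32816 had 1.04 FPKM in osa RNAi, from about 20.5 implied reads, and was listed at 0 in wild type. That is few beside the 1308 reads of l(1)sc and the 1121 reads of ase in osa RNAi. In the BDGP6 annotation CG32816 lies on the opposite strand and 0 of its exons overlap an exon of the 4 genes. The loci of tap, ato and da overlap no other locus of the files. Each of the 7 genes has 1 entry in its start-site field, though da has 4 transcripts in BDGP6. All of them except da have a single exon in BDGP6, as do 15.3% of protein-coding genes there.

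Other genes in and beside the complex had low values or were listed at 0, apart from Exp6. The protease gene pcl, between l(1)sc and ase, and the pigmentation gene y were listed at 0 in both libraries. The non-coding RNA gene yar, between y and ac, was listed at 0 in osa RNAi and had 4.11 FPKM in wild type (2.40 to 5.83) from 23 implied reads. An equal level would have given 35.7 reads of yar in osa RNAi, in the same range of expected reads as sc. The cytochrome P450 gene Cyp4g1, next to ase, had 0.901 FPKM in osa RNAi and was listed at 0 in wild type. Beyond it, the gene named Exp6 in the files had 18.0 FPKM in osa RNAi (16.9 to 19.1), against 14.9 FPKM in wild type (13.7 to 16.1). By the rule yar was lower in osa RNAi and 0 of these neighbours were higher. The median log2(FPKM + 1) difference was 0.02 over 1219 measured genes of the X chromosome and 0.04 over 5887 of the autosomal arms.

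**Figure D3:**
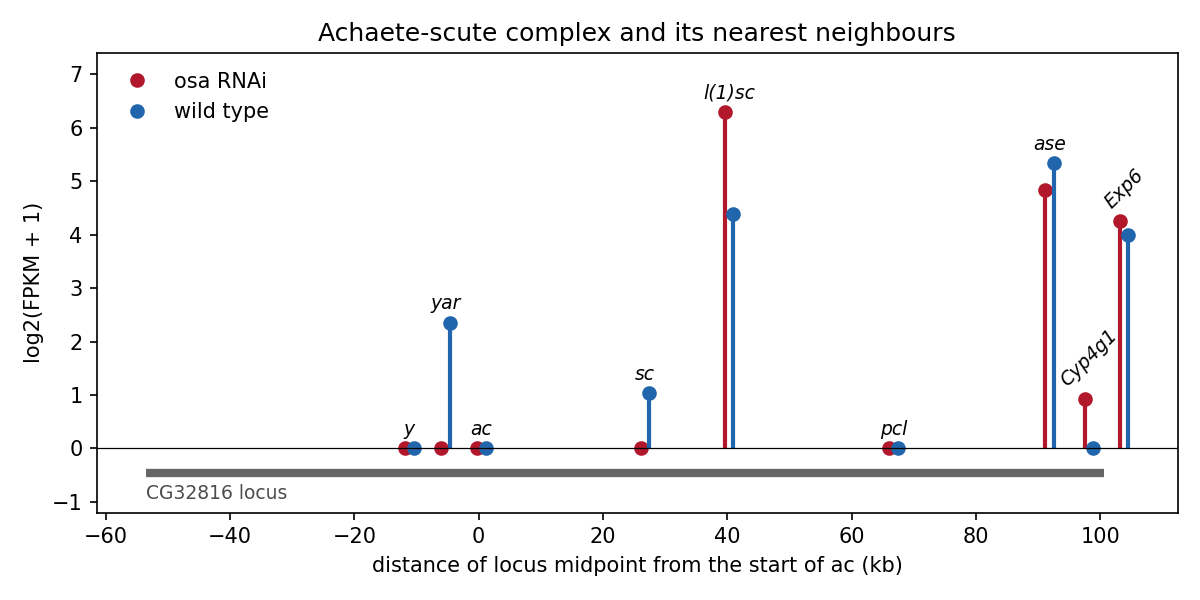
Level as log2(FPKM + 1) of the achaete-scute complex genes and the nearest genes on either side, by distance of the locus midpoint from the start of ac in kb, in osa RNAi (red) and wild type (blue), 1 library each and drawn side by side; the grey bar shows the extent of the CG32816 locus. At l(1)sc the red point is above the blue one (77.6 FPKM in osa RNAi, 19.8 FPKM in wild type), and at ase it is below (27.7 FPKM in osa RNAi, 39.4 FPKM in wild type).

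Genes with the most similar pair of levels were sought by distance over log2(FPKM + 1) in the 2 libraries, among genes whose locus overlaps no other. For tap the nearest was extramacrochaetae (emc) at a distance of 0.07, followed by the cell adhesion gene Lac at 0.13 and the Sox gene D at 0.19. For ato they were CG1116 at 0.17, CG12253 at 0.26 and the homeobox gene Dll at 0.28. For l(1)sc they were farther away, CG4019 at 0.46, the tubulin gene betaTub60D at 0.49 and CG17715 at 0.53. Within a distance of 0.25 there were 5 genes for tap, 1 for ato and 0 for l(1)sc. A likeness over 2 libraries says only that the levels are alike.

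**Figure D4:**
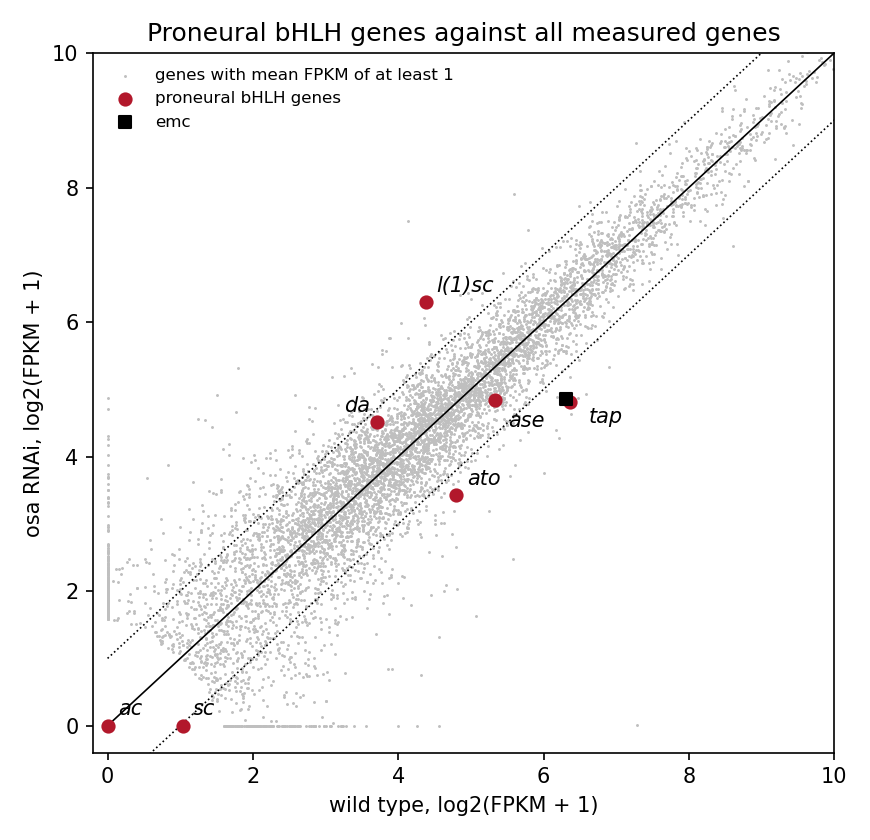
Level in osa RNAi (vertical axis) against level in wild type (horizontal axis), both as log2(FPKM + 1), 1 library each; grey points are the measured genes, red points the proneural bHLH genes, the black square emc, the solid line equal levels and the dotted lines a difference of 1. The gene l(1)sc lies above the upper dotted line (difference 1.92), tap and ato lie below the lower one (−1.55 and −1.37), and sc and ac had a mean under 1 FPKM.

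Among 10 measured antagonists of proneural proteins, 2 were lower in osa RNAi by the rule, 0 were higher and 8 did not pass. Their median difference was −0.17. Over all measured genes the rule called 6.79% lower and 7.78% higher. The Id-type gene emc, whose product binds Daughterless, had 27.8 FPKM in osa RNAi (ratio 0.356, 95% interval 0.326 to 0.389), against 78.1 FPKM in wild type. The FPKM of emc was 1.27 times that of da in osa RNAi (95% interval 1.16 to 1.396) and 6.46 times that of da in wild type (5.797 to 7.19). The second lower gene was Hey, a Notch target of newborn neurons, with 2.90 FPKM in osa RNAi and 11.2 FPKM in wild type.

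The other measured antagonists did not pass the rule, and h and HLHm5 were below the limit for a measured gene. The neuroblast repressor gene dpn had 67.3 FPKM in osa RNAi and 61.97 FPKM in wild type, and the co-repressor gene gro had 68.4 FPKM in osa RNAi and 66.5 FPKM in wild type, with overlapping intervals for each. The repressor gene of the complex listed as E(spl) had 203 FPKM in osa RNAi and 298 FPKM in wild type, while HLHm3 had 5.51 FPKM in osa RNAi and 3.32 FPKM in wild type. The segmentation gene hairy (h) was listed at 0 in osa RNAi and had 0.278 FPKM in wild type. CG10446 of this list was not matched to a row of the files.

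Of 18 other bHLH genes of a fixed list found in the files, 4 were measured and 11 were listed at 0 in both libraries, among them the atonal-class gene cato. Of the 4, 2 were lower in osa RNAi, 0 were higher and 2 did not pass, where 6.79% of all measured genes were lower and 7.78% higher. Those that did not pass were sage and crp, the latter at 45.6 FPKM in osa RNAi and 41.3 FPKM in wild type. The Olig-family gene Oli had 29.4 FPKM in osa RNAi and 94.98 FPKM in wild type, a factor of 3.23 lower (95% interval 2.91 to 3.58). Fer2 was listed at 0 in osa RNAi and had 7.31 FPKM in wild type, where an equal level would have given 169 reads in osa RNAi. Of the 959 genes with 160 to 320 expected reads, 3 (0.313%) were listed at 0 in osa RNAi. Fer2 itself was among them, and such genes may themselves differ between the libraries. The median difference of the 4 was −1.29. The other proneural gene of the atonal class, amos, had 0.648 FPKM in osa RNAi and was listed at 0 in wild type, below the limit for a measured gene.

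Of 15 measured genes placed downstream of achaete-scute or atonal factors, 2 were lower in osa RNAi, 0 were higher and 13 did not pass. Their median difference was −0.42. Shares over all measured genes were 6.79% lower and 7.78% higher. The lower genes were nerfin-1, needed for neuronal differentiation, with 3.24 FPKM in osa RNAi against 24.3 FPKM in wild type, and the cell cycle inhibitor gene dap, with 7.77 FPKM in osa RNAi against 21.8 FPKM in wild type. The sensory precursor gene senseless (sens) was listed at 0 in both libraries. The Notch ligand gene Dl, without passing, had 22.0 FPKM in osa RNAi and 13.3 FPKM in wild type. Also without passing but with intervals apart, phyl, nvy, insc and mira were higher, and scrt, chn, m4, malpha and pros were lower. Among them the FPKM of nvy was 2.18-fold higher, and that of scrt and chn 2.03-fold and 4.59-fold lower, all at low levels.

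**Figure D5:**
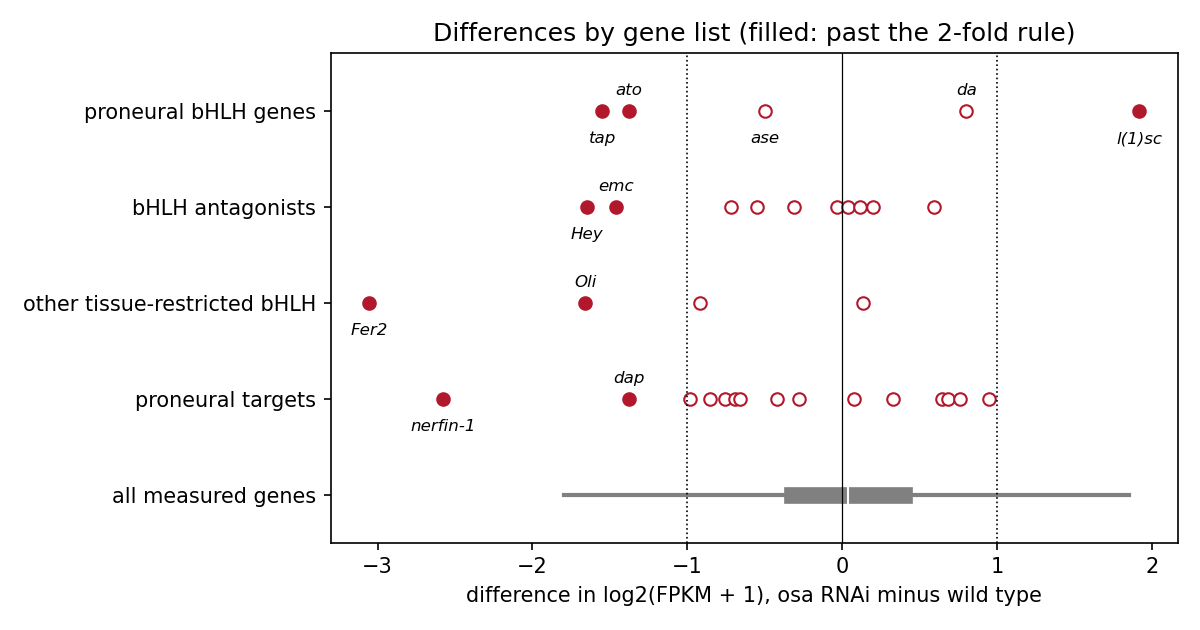
Difference in log2(FPKM + 1), osa RNAi minus wild type, of measured proneural bHLH genes and of 3 gene lists, 1 point per gene and filled where past the 2-fold rule; the grey line spans the central 95% of all 7144 measured genes, the thick part the middle 50%, and dotted lines mark −1 and 1. The filled points of the 3 lists all lie to the left of −1, and among the proneural genes l(1)sc alone lies to the right of 1.

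The knockdown itself and the makeup of the sorts were read from other genes of the same tables. The transcript of osa was at 15.6 FPKM in osa RNAi and 31.3 FPKM in wild type. Its deposited intervals lay apart, at 15.0 to 16.2 FPKM in osa RNAi and 30.3 to 32.3 FPKM in wild type. The FPKM of osa was a factor of 2.006 lower in osa RNAi (ratio interval 1.91 to 2.11). With 1 added to each FPKM, its log2(FPKM + 1) difference of −0.96 did not pass the rule. Differences at least as large were found in 15.6% of measured genes. Beside the marker counts that follow, the rule called 7.78% of all measured genes higher and 6.79% lower. Summed over 8 type II neuroblast markers the level was 656 FPKM in osa RNAi and 477 FPKM in wild type, and 1 of 8 was called, pnt, which was higher. Much of the gap between these sums came from mira, with 302 FPKM in osa RNAi and 192 FPKM in wild type, and from pnt, with 53.3 FPKM in osa RNAi and 13.8 FPKM in wild type. The neuroblast genes dpn and wor had overlapping intervals (log2(FPKM + 1) differences of 0.12 and 0.07), and Sp1 was lower without passing, at 45.6 FPKM in osa RNAi and 62.02 FPKM in wild type. Summed over 8 INP markers the level was 178 FPKM in osa RNAi and 268 FPKM in wild type. By the rule 6 of 8 were lower (D, ey, ham, opa, hbn and Oaz) and grh was higher. Much of the osa RNAi sum was grh, with 92.2 FPKM in osa RNAi and 33.6 FPKM in wild type. The remaining marker, erm, had overlapping intervals, at 41.8 FPKM in osa RNAi and 44.7 FPKM in wild type. The lower INP markers stood beside the lower values of tap and ato, and their part in those differences was not tested. Summed over 8 neuronal markers the level was 43.9 FPKM in osa RNAi and 61.1 FPKM in wild type, and Snap25 was lower among 6 measured. Much of that gap came from elav, with 30.5 FPKM in osa RNAi and 41.3 FPKM in wild type. The other measured neuronal markers were mixed and did not pass. With intervals apart elav was lower and Syt1 and VGlut were higher, while nSyb and cac had overlapping intervals. Below the limit for a measured gene, brp and ChAT were lower with intervals apart. The gene brp had 0.145 FPKM in osa RNAi and 1.02 FPKM in wild type. ChAT had 0.0215 FPKM in osa RNAi, from 1 implied read, and 0.538 FPKM in wild type, from 17. Syt1 had 1.63 FPKM in osa RNAi and 0.578 FPKM in wild type, and VGlut 2.61 FPKM in osa RNAi and 0.940 FPKM in wild type. Optic lobe and eye disc markers, tissues where l(1)sc and ato are used, summed to 159 FPKM in osa RNAi and 211 FPKM in wild type. Most of both sums was ogre, with 118 FPKM in osa RNAi and 125 FPKM in wild type and overlapping intervals. Of 9 measured there, 4 were lower (Rx, Optix, bsh and ap), 0 were higher, and ro was listed at 0 in both libraries. Without passing but with intervals apart, eya was higher, at 16.2 FPKM in osa RNAi and 7.87 FPKM in wild type. In the same way so and dac were lower. Of 3 measured glial markers loco was higher and gcm lower, and the glial sums were 135 FPKM in osa RNAi and 167 FPKM in wild type. Most of both glial sums was nrv2, with 120 FPKM in osa RNAi and 156 FPKM in wild type. The defining glial gene repo had 0.709 FPKM in osa RNAi and was listed at 0 in wild type. Of 8 sensory organ markers sens, cato, Poxn and nompA were listed at 0 in both libraries, and sv was lower among 3 measured. The sums of the sensory organ markers were 26.0 FPKM in osa RNAi and 17.8 FPKM in wild type. Most of them came from phyl (13.6 FPKM in osa RNAi, 10.6 FPKM in wild type) and Su(H) (11.4 FPKM in osa RNAi, 5.45 FPKM in wild type). Much of the gap between the sums was Su(H), and phyl is also on the list of downstream genes. The part of these cells in the differences was not tested.

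The authors' deposited table of genes that differed at a false discovery rate under 0.01 had 15 entries, and 0 of the 7 proneural genes were among them.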

How the data were processed

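The authors deposited 1 table per library with FPKM values, their lower and upper bounds and a status per gene, per the file headers, and a table of p-values deposited by the authors, which was used only to look up the proneural genes. Tools listed in the submitters' processing notes, with no role stated, were Cufflinks 1.3.0, TopHat 1.4.1, DESeq 1.8.3, BWA 0.6.1 and HTSeq. The libraries were strand-specific per the labels' protocols; whether strand was used in counting, and the genome build, are not stated in the labels or files used here. Starts of loci were raised by 1, since 3495 of 13575 genes then had their BDGP6 length, against 248 otherwise.

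Bounds lay at FPKM ± 2 FPKM/√n. This n was taken as the implied reads. It was whole within 0.02 for 93.4% (osa RNAi) and 92.8% (wild type) of genes with 1 start-site entry and under 50 reads. The implied reads summed to 15707014 in osa RNAi and 10114559 in wild type. Ratio intervals (95%) come from these reads. The implied reads per FPKM, osa RNAi over wild type, ran from 1.41 to 1.71. These are percentiles 5 to 95 of 3023 genes with 1 start-site entry and at least 100 reads. The value was 1.70 for ase and 1.43 for da, so FPKM and reads were not linked by a common factor.

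Values were computed in Python 3.11.15 with pandas 2.3.3. The call rule was a log2(FPKM + 1) difference of at least 1, a mean of at least 1 FPKM, status OK and intervals apart. It was run on simulated data with counting error only, which cannot give its error rate between real libraries. The proneural genes, the gene lists and the rules were chosen with earlier results of these data known. Named were the proneural genes, genes at their loci, called list members with emc, gro, dpn, h and sens, the 3 nearest genes by level, and markers called or at 0; other list members are examples chosen after their values were seen. Alternatives were pseudocounts, library scaling, filters, fold thresholds, interval bounds and read shares.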

Additional observations from a re-analysis of the deposited data

How the results depend on the processing

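No paired analysis was possible because each genotype had 1 library, and for the same reason no library could be left out. The direction of ase, l(1)sc, tap, ato and da was the same under every alternative run. For sc, listed at 0 in osa RNAi, scaling and pseudocounts cannot turn the sign, and ac had no value to vary. The gene l(1)sc stayed called except where genes in overlapping loci were left out (0 genes higher), since its locus lies in that of CG32816. At a 1.5-fold threshold da joined it (2 higher), and at a 3-fold threshold tap and ato were not called (0 lower); the cause in both is the threshold itself. Without the filter on low values sc was called as well (3 lower). Between the nearest and the farthest interval bounds the log2(FPKM + 1) difference ran from 1.66 to 2.20 for l(1)sc, −0.32 to −0.67 for ase, −1.38 to −1.72 for tap, −1.07 to −1.68 for ato and 0.60 to 1.01 for da, and the nearest bounds gave −0.61 for sc. With a pseudocount of 5 it was −1.43 for tap, −1.11 for ato, 0.65 for da and −0.27 for sc, and with 0.1 it was −3.52 for sc, whose value rests on the pseudocount. Reads summed with CG32816, as shares of all implied reads, gave −0.35 for ase and −0.28 for sc. Read shares without that sum, an alternative added after seeing the data, gave −0.38 for ase, 2.05 for l(1)sc, −1.50 for tap, −1.51 for ato and 0.74 for da.

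Over all genes, 556 were higher and 485 lower. The counts were 154 higher and 109 lower with a pseudocount of 5, 261 and 180 where the mean FPKM had to reach 5, 1219 and 1023 at 1.5-fold, 286 and 246 at 3-fold, and 297 and 274 without overlapping loci. Without the filter on low values HLH4C was higher (1 gene of the other bHLH list), and with a pseudocount of 0.1 nvy was higher (1 gene of the downstream list) and chn and sage were also lower (3 lower in the downstream and in the other bHLH list). A listed 0 does not show absence: of 569 genes with 20 to 40 expected reads, the range of sc, 40.6% were listed at 0 in osa RNAi, and for ac no expected number could be had.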
